A study of Mus musculus with 6 samples.

Results

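The genes described here are the endothelin ligands Edn1 and Edn3, the receptors Ednra and Ednrb, the processing enzyme Ece1, and Sox10, Mitf and Kit, which mark glial and pigment lineages of the neural crest. They were chosen by function around 1 measured value, the Delta9 to WT difference of Ednrb, so that difference and those of the other members are given as descriptions without a test. Of the 8 genes, 7 had a probe set carrying their symbol alone, among 18193 genes measured; Ednra was not analysed here. The 7 genes have 18 probe sets, and each gene is represented by the one with the highest mean over all arrays.

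Endothelins are short peptides cut from longer precursors, the last cut being made by endothelin-converting enzymes such as Ece1. They act on G-protein-coupled receptors that raise calcium through phospholipase C. In the embryo, Edn3 acting on Ednrb is needed for the crest cells that become pigment cells and enteric neurons, and mice lacking either gene have largely white coats and a stretch of colon without ganglia. Sox10, Mitf and Kit act in the same lineages, and each is also used elsewhere: Mitf in osteoclasts and macrophages, Kit in mast cells. Outside the crest, Ednrb is known from endothelial cells and glia.

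The cells were primary mouse fibroblasts of mixed C57bl6X129S3/J background, from lines carrying the Delta9 allele of Lmna (Delta9, 3 samples) or from wild-type sibling lines (WT, 3 samples). Lmna encodes lamins A and C of the nuclear lamina; the labels do not say whether the allele was on 1 or both chromosomes. Cells of both groups had been passaged by a 3T3 schedule, were at passage 3 and were starved of serum for 72 hours before harvest. Each sample was read on 1 Affymetrix array. The labels do not say whether the replicates came from separate animals, so the p-values given below measure the spread between these samples, and the ages are given as adult in one place and as post-natal in another.

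All levels are log2 probe set values on the deposited scale, and a difference is Delta9 minus WT with its moderated standard error (SE). For Lmna, the brightest probe set read 7.07, 6.95 and 6.11 on the Delta9 arrays and 8.35, 8.89 and 8.78 on the WT arrays, without overlap. It differed by -1.96 (SE 0.28, adjusted p 0.0899, limma), and the files do not show whether its probes match the changed stretch of the gene. Fibroblast markers were bright on every array, with the collagens Col3a1, Col1a2 and Col1a1 at mean levels of 13.1, 12.5 and 12.2, and 12 of 12 measured markers had a lower mean in Delta9, with a median difference of -0.25 (-0.43 without WT replicate 1). Macrophage markers were also bright: Lyz2, Tyrobp and C1qa had mean levels of 12.2, 11.2 and 11.1, and 13 of 13 measured markers of that list had a higher mean in Delta9, with a median difference of 1.09 and a lowest adjusted p of 0.222 (limma). Leaving out WT replicate 3 gave 0.52 for that median, and leaving out WT replicate 1 gave 1.65. Averaged over the macrophage list, the level was 10.4, 10.2 and 10.8 on Delta9 arrays 1 to 3 and 10.3, 9.58 and 8.07 on WT arrays 1 to 3, so WT replicate 3 stood lowest and WT replicate 1 lay among the Delta9 arrays. Among the control probe sets for RNA quality, beta-actin set WT replicate 3 apart as well, and Gapdh did not. The 3' minus 5' signal of beta-actin was 1.41 there and 0.51 to 0.86 elsewhere. That of Gapdh was 0.51 in WT replicate 3, within the 0.49 to 0.57 of all arrays but Delta9 replicates 1 and 2, at 0.25 and 0.23. The part of RNA quality in the values below was not tested. In such bulk samples, fewer cells of a type and less RNA per cell cannot be told apart.

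Ednrb, the B-type endothelin receptor, had the widest gap between the groups among the members. Its brightest probe set, 1437347_at, read 8.38 in Delta9 replicate 1, 6.24 in replicate 2 and 7.22 in replicate 3, against 5.26, 4.66 and 4.68 in WT (values are given in replicate order throughout). Every Delta9 array was therefore above every WT array, and the lowest Delta9 value exceeded the highest WT value by 0.99 log2, or 1.98-fold. The group means were 7.28 ± 1.07 and 4.87 ± 0.34 (SD, n = 3), a difference of 2.41 (SE 0.50), or 5.33-fold higher in Delta9. Only 6 of the 18193 genes had a larger difference in that direction.

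The Delta9 samples varied widely in this receptor. They spanned 2.13 log2, or 4.39-fold, whereas WT spanned 0.59 log2, and 1.03% of all genes had a larger SD among the Delta9 arrays. Delta9 replicate 1 was the highest and replicate 2 the lowest. With each sample left out in turn the difference ran from 1.86, without Delta9 replicate 1, to 2.93, without Delta9 replicate 2.

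The other Ednrb probe sets were dim. To place dim signals, 80 probe sets of olfactory and vomeronasal receptors, which fibroblasts should lack, were used as a reference: their median level was 2.33 and their 95th percentile 3.35. Brightness depends on the probes as well as on the transcript, so this is a rough guide. Probe set 1423594_a_at read 3.85, 3.16 and 3.35 in Delta9 and 3.08, 2.97 and 2.89 in WT, again with no overlap, and differed by 0.48. Probe set 1426314_at read 2.81, 2.51 and 2.90 against 2.63, 2.55 and 2.59, which overlap. The order of the Delta9 arrays on 1423594_a_at was the same as on the bright probe set. The mean of all 3 probe sets gave a difference of 1.01.

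**Figure D1:**
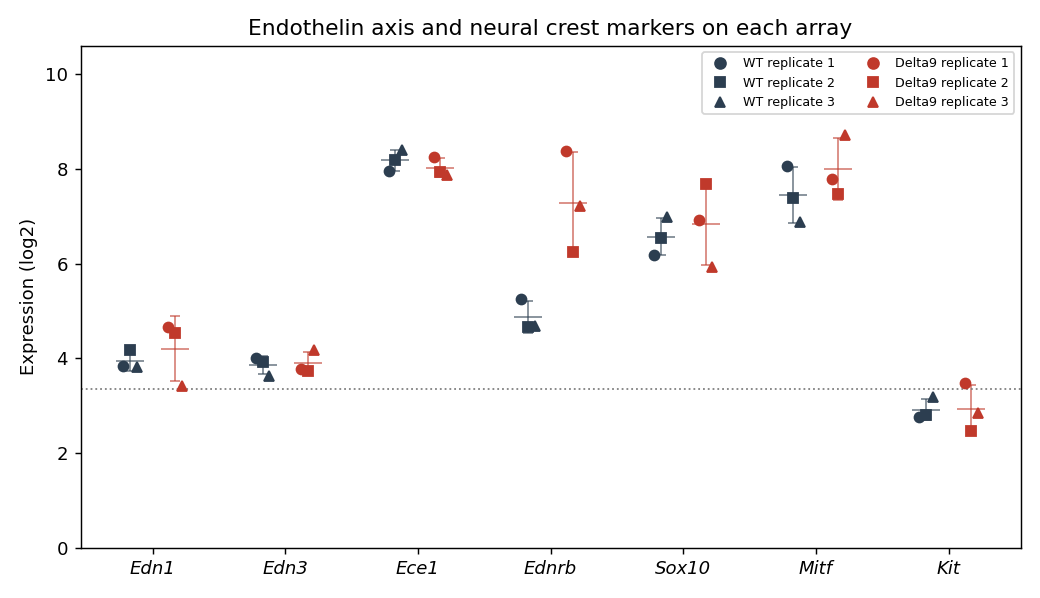
Expression (log2, vertical axis) of the 7 measured members on each of the 6 arrays, WT in dark blue and Delta9 in red, with a marker shape for each replicate number. Horizontal dashes are group means, bars are 1 SD (n = 3) and the dotted line is the 95th percentile of the olfactory and vomeronasal receptor probe sets, 3.35; Ednrb is the one member whose groups do not overlap.

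The groups of the other 6 measured members overlapped, so 1 of 7 members was separated in the higher direction and 0 of 7 in the lower one. Over all genes 7.27% were separated as higher and 9.99% as lower. These counts come from the contrast on which the members were picked and nothing is read from them.

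The ligand genes gave low signals. Edn1, which encodes endothelin-1, read 4.67, 4.54 and 3.41 in Delta9 and 3.83, 4.18 and 3.82 in WT. Delta9 replicates 1 and 2 were above all WT arrays and replicate 3 was below them. The difference was 0.27 (SE 0.33), and it ranged from 0.03 without Delta9 replicate 1 to 0.66 without Delta9 replicate 3. Edn3, which encodes the ligand that acts mainly on Ednrb, read 3.77, 3.73 and 4.17 in Delta9 and 4.01, 3.92 and 3.64 in WT on its brightest probe set, with a difference of 0.03 (SE 0.17). Of its other probe sets, 1441924_x_at averaged 3.49, and 1421136_at and 1441923_s_at averaged 2.32 and 2.95, below the receptor reference. On 1441924_x_at the difference was -0.37, where WT replicate 2 stood at 4.35 against 3.28 and 3.40 in the other WT samples.

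Ece1, the enzyme that completes endothelin maturation, was clearly measured. It read 8.26, 7.95 and 7.88 in Delta9 and 7.95, 8.18 and 8.41 in WT, interleaved between the groups, with a difference of -0.15 (SE 0.17). A second probe set with clear signal, 1434177_at, read 7.46, 7.26 and 7.29 against 7.66, 7.42 and 5.63, a difference of 0.44. The probe sets thus disagreed in sign, and the positive one came with a single low array, WT replicate 3. The third, 1441423_at, averaged 3.00, under the receptor reference.

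Sox10, the transcription factor that specifies crest glia and pigment cells, was measurable in these cultures. Its brightest probe set read 6.91, 7.69 and 5.93 in Delta9 and 6.19, 6.54 and 6.99 in WT. Delta9 replicates 2 and 3 were the highest and the lowest of all arrays, so the spread within Delta9 exceeded the gap between the groups. The difference was 0.27 (SE 0.43), and -0.15 without Delta9 replicate 2 or 0.73 without Delta9 replicate 3. A second probe set, 1424985_a_at, read 5.45, 5.57 and 5.01 in Delta9 and 4.98, 5.11 and 5.37 in WT. The arrays fell in nearly the same order on both: Delta9 replicate 2 was highest on each, and Delta9 replicate 3 and WT replicate 1 were the lowest pair on each. That pair was also lowest in the signal of spike-in control RNA, at 5.09 and 4.78 against 5.46 to 5.87 elsewhere. The part of this in the Sox10 values was not tested. The third probe set, 1425369_a_at, averaged 2.94, under the receptor reference, and differed by -0.09, with WT replicate 3 the highest array.

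Other glial genes were listed as markers of cells that might share the cultures. Of 13 measured Schwann cell and glia markers, 11 were above the receptor reference and 2 were not, and none passed the threshold (lowest adjusted p 0.470, limma). At an unadjusted p under 0.05 there were 0, against 4.54% of all genes higher and 6.06% lower. The median difference of the glia markers was 0.13, and it was -0.01 without Delta9 replicate 2 and 0.28 without Delta9 replicate 3. The highest mean values were those of Ncam1, an adhesion molecule also made by other cells, at 8.74, Egr2, a myelination factor that serum and growth signals also induce, at 7.38, and Erbb3, the neuregulin receptor of Schwann cells, at 6.28. Chosen after their values were seen, Erbb3 read 6.33, 6.95 and 5.75 in Delta9 and 5.62, 6.29 and 6.72 in WT. Ngfr, the low-affinity neurotrophin receptor found on crest cells and Schwann cells, taken from the neural crest list, read 7.36, 8.40 and 7.08 against 6.76, 7.64 and 8.08. Cdh19, a cadherin of Schwann cell precursors, read 5.07, 6.03 and 4.45 against 4.21, 5.43 and 6.16. In Erbb3, Ngfr and Cdh19 alike, WT replicate 1 was the lowest WT sample and Delta9 replicate 2 the highest Delta9 sample, as for Sox10. Of all 13 glia markers, 5 had both features. Ncam1 did not, with WT replicate 1 the highest of the WT samples. Both features were also seen outside this list, as in Mcam and Cspg4 of the pericyte list and Vim of the fibroblast list. The share of genes with both features was not counted over all genes, so nothing about glial genes is read from them.

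Mitf, the master regulator of pigment cells, read 7.78, 7.47 and 8.73 in Delta9 and 8.07, 7.38 and 6.89 in WT. Delta9 replicate 3 was the highest and WT replicate 3 the lowest, and the groups overlapped through WT replicate 1. The difference was 0.55 (SE 0.40), with a range of 0.18 without Delta9 replicate 3 to 0.86 without WT replicate 1. Its dim probe set 1422025_at read 2.66, 2.66 and 4.13 in Delta9 and 2.68, 2.51 and 2.16 in WT, with the same arrays at both extremes. The macrophage list given above had these same extremes, Delta9 replicate 3 at 10.8 and WT replicate 3 at 8.07. The correlation of Mitf with that list across arrays is given under other observations. The part of macrophages in the Mitf values was not tested.

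Pigment cell genes that Mitf drives were near the dim reference. Of 11 measured melanocyte markers, 7 were at or below it, including the pigment enzymes Tyr, Tyrp1 and Dct with means of 2.58, 2.58 and 2.82. The brightest were Rab38, a trafficking protein of several cell types, at 5.48, the transporter Slc45a2 at 4.38 and Mlana at 3.87. Averaged over this list, the level was 3.19, 3.23 and 3.17 on the Delta9 arrays and 3.29, 3.35 and 3.35 on the WT arrays, so it was slightly lower on the Delta9 arrays where Ednrb was high. No melanocyte marker passed the threshold (lowest adjusted p 0.258, limma). At an unadjusted p under 0.05 (limma), 1 of the 11 was lower, against 6.06% of all genes. It was Trpm1, with a mean of 2.6, below the receptor reference.

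Kit, the receptor for stem cell factor, was dim. Its brightest probe set read 3.47, 2.47 and 2.84 in Delta9 and 2.77, 2.80 and 3.18 in WT, with a mean of 2.92 and a difference of 0.01 (SE 0.25). The other, 1415900_a_at, averaged 2.52. Mast cell markers were low as well: 6 of 8 were at or below the receptor reference, among them the mast cell protease Cpa3 at 2.79. The exceptions were Gata2, a factor of many cell types, at 5.57 and the tryptase Tpsb2 at 3.79, and Hdc was the next at 3.05. Kitl, the ligand of Kit, was clearly measured at 6.57, 6.64 and 7.11 in Delta9 and 6.93, 6.65 and 7.15 in WT, with overlapping groups. It was named after its values were seen.

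**Figure D2:**
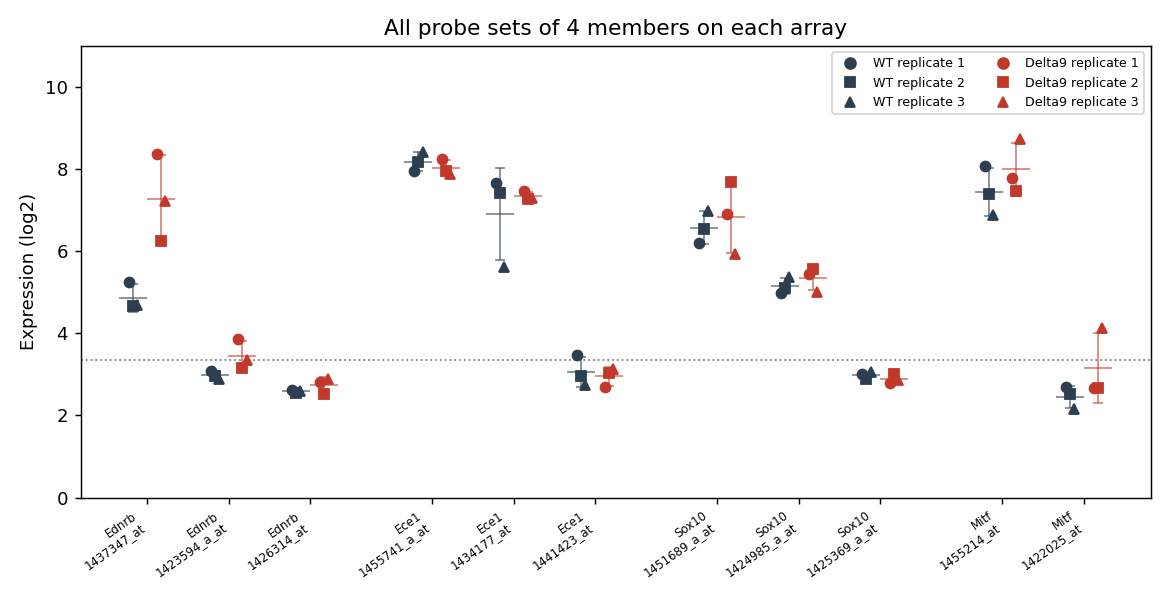
Expression (log2, vertical axis) of every probe set of Ednrb, Ece1, Sox10 and Mitf on the 6 arrays, with WT in dark blue, Delta9 in red, a marker shape for each replicate number, group means as dashes, SD as bars (n = 3) and the 95th percentile of the receptor reference, 3.35, as a dotted line. Both Ednrb probe sets without overlap between groups are at the left; on Ece1 1434177_at a single WT value of 5.63 lies far below the rest.

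The level of Ednrb was set beside the marker lists of cell types that can express it. For the endothelial list the level averaged 5.11, 4.66 and 4.37 on the Delta9 arrays and 4.29, 4.48 and 4.74 on the WT arrays, overlapping between the groups. Of its 11 genes 0 were separated, against 7.27% of all genes as higher and 9.99% as lower. Its brightest members were Egfl7 at 6.01, Cldn5 at 5.54 and Kdr at 5.04. Delta9 replicate 1 was the highest array for both this list and Ednrb, whereas Delta9 replicate 3, the next highest for Ednrb, was among the lowest for the list. For the Schwann cell and glia list the level averaged 5.01, 5.32 and 5.04 against 4.84, 5.06 and 5.13, so Delta9 replicate 2, the lowest Delta9 sample for Ednrb, was the highest there. The macrophage list averaged 10.4, 10.2 and 10.8 on the Delta9 arrays and 10.3, 9.58 and 8.07 on the WT arrays. Like Ednrb, it was above its 6-array mean on every Delta9 array and below it on WT replicates 2 and 3. On WT replicate 1 it was above its mean, where Ednrb was below. The list was at 10.3 on WT replicate 1 and 10.2 on Delta9 replicate 2, where Ednrb read 5.26 and 6.24. Without WT replicate 3, the lowest array of the macrophage list, the Ednrb difference was 2.32. The pericyte and smooth muscle list, led by Acta2 at 12.4, Notch3 at 7.35 and Rgs5 at 6.75, averaged 6.45 in Delta9 and 6.87 in WT. Its median difference was -0.41, and 0.06 without Delta9 replicate 3. In the macrophage list 6 of 13 genes were separated as higher and 0 as lower. The glia list had 1 of 13 and the pericyte list 2 of 10 separated as lower, and 0 as higher in both. The part of these cell types in the Ednrb values was not tested.

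**Figure D3:**
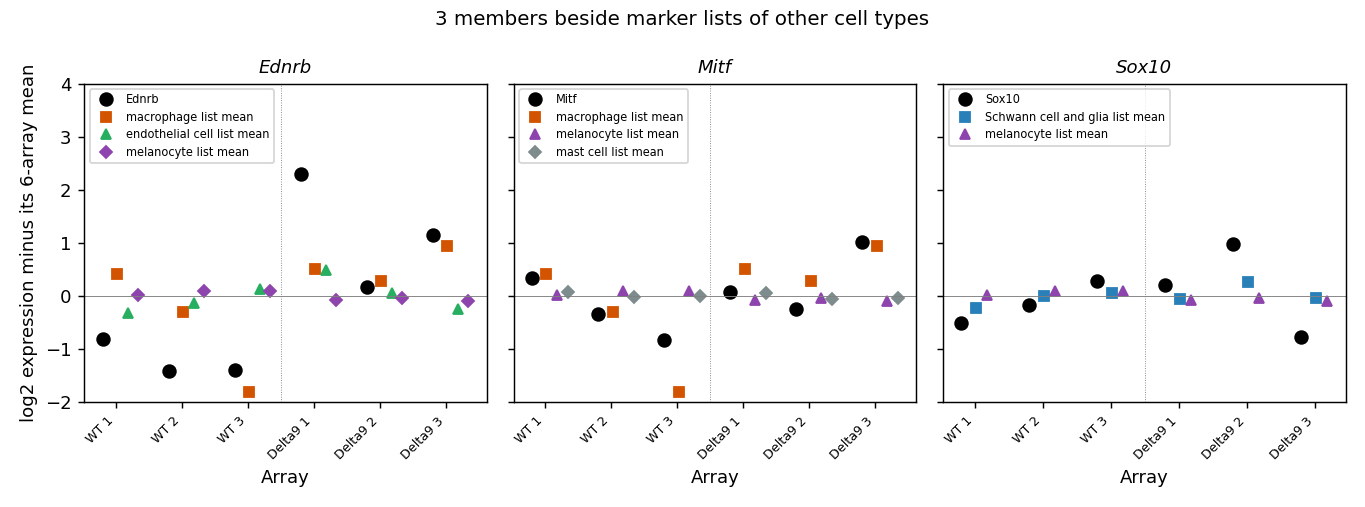
Log2 expression minus its own 6-array mean (vertical axis) on each array for Ednrb, Mitf and Sox10 (black circles), with the means of marker lists of other cell types as coloured symbols. Ednrb is above its mean on all 3 Delta9 arrays and below it on all 3 WT arrays, while the macrophage list is above its mean on WT replicate 1 as well; Mitf and the macrophage list share their highest array, Delta9 replicate 3, and their lowest, WT replicate 3.

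The genes most like Ednrb in pattern were sought among the 1458 genes with an SD over the arrays of at least 0.5. By Pearson correlation over the 6 arrays they were Cmtm8 (r = 0.98), Ccl8 (0.98), Tmem51 (0.98), Prxl2a (0.97) and Gpr146 (0.97). With 6 arrays and so many genes such values are a description only. Ccl8, a chemokine that attracts monocytes and other leukocytes, read 9.87, 8.25 and 8.93 in Delta9 and 7.91, 7.41 and 7.76 in WT. Prxl2a, a peroxiredoxin-like protein, read 6.56, 5.77 and 6.16 against 5.21, 4.90 and 4.49. Cmtm8, a membrane protein of the chemokine-like factor family, read 4.94, 4.20 and 4.35 against 3.80, 3.64 and 3.43. In all 5 genes Delta9 replicate 1 was the highest array, as it was for Ednrb, and the groups did not overlap. The measured genes on either side of Ednrb in the genome, Slain1 and Pou4f1, were dim, with means of 2.79 and 2.41 and differences of -0.20 (SE 0.12) and 0.04 (SE 0.09).

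The rest of the pathway was taken from 5 lists with 84 measured genes. No gene among them passed an adjusted p of 0.05, which 0.0605% of all genes did (limma, Benjamini-Hochberg over all genes; lowest adjusted p in the lists 0.115). Without adjustment 20 fell under 0.05, of which 4 were higher and 16 lower in Delta9; the shares over all genes were 4.54% higher and 6.06% lower. Without WT replicate 3 the 20 became 11, the lowest over the alternatives, and with a split of the arrays by spike-in signal 29, the highest. The count over all genes moved too, from 1928 to 1399 without WT replicate 3 and to 3284 with that split. The groups did not overlap for 6 of the 84 genes higher and 16 lower, against 7.27% and 9.99% of all genes. The median difference was -0.05 over the 84 genes and -0.01 over all genes. Of the 20 genes named from these lists, 12 moved by more than 1.5 times when all probe sets of a gene were averaged.

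Other ligands, proteases and degrading enzymes of the endothelin system numbered 9, with a median difference of -0.03 (0.02 without Delta9 replicate 1 and -0.08 without Delta9 replicate 2), and 6 of them were at or below the receptor reference. Mme, neprilysin, a protease that degrades endothelins among other peptides, read 2.13, 1.83 and 2.38 in Delta9 and 2.93, 2.49 and 3.00 in WT. It was lower in 3 of 3 Delta9 samples, with a difference of -0.69 (SE 0.18, adjusted p 0.279), at a level where signal is doubtful, and by -0.39 as the mean of its probe sets. Ctsa, the lysosomal protective protein that can also trim endothelin-1, was bright and differed by 0.38 (SE 0.17, adjusted p 0.493), with all Delta9 arrays above WT; the mean of its probe sets differed by 0.12. Edn2, the remaining ligand, and Kel, a blood-group protease able to cleave endothelin precursors, were dim, at means of 2.45 and 3.28, and differed by -0.21 and -0.15 (adjusted p 0.517 and 0.663). Ece2, a relative of Ece1, read 6.72, 6.88 and 5.99 in Delta9 and 5.89, 6.46 and 6.66 in WT, which overlap; it too was named after its values were seen.

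Genes that carry the receptors' signal numbered 27, with 12 higher, 15 lower and a median of -0.06 (-0.15 without WT replicate 2, the farthest among the omissions, and -0.06 to -0.11 without the others). At an unadjusted p under 0.05, 7 were lower and 0 were higher, against 6.06% and 4.54% over all genes. The 4 of lowest p were all lower in 3 of 3 Delta9 samples. Trpc1, a calcium-permeable channel, read 4.13, 3.87 and 4.01 in Delta9 and 4.50, 4.95 and 5.01 in WT, with a difference of -0.82 (SE 0.17, adjusted p 0.222). Plcb1, a phospholipase C activated by Gq, read 3.98, 3.99 and 4.22 against 4.59, 4.85 and 5.10, with a difference of -0.78 (SE 0.17, adjusted p 0.222). Its relative Plcb4 differed by -0.48 (adjusted p 0.315) and Prkca, the calcium-dependent protein kinase C alpha, by -0.62 (adjusted p 0.338). Trpc1 and Plcb1 passed when arrays were weighted by their quality, with adjusted p of 0.0415 and 0.0358 (limma), the lowest over their alternatives, where the highest were 0.611 and 0.542. As means of their probe sets the 4 differed by -0.40 (Trpc1), -0.34 (Plcb1), -0.05 (Plcb4) and -0.38 (Prkca).

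Neural crest factors and targets of endothelin signalling in the embryo numbered 27, of which 19 were lower and 8 higher, with a median of -0.14. Leaving out Delta9 replicate 3 gave a median of -0.09, and leaving out WT replicate 1 gave -0.20, the extremes over the 6 omissions. At an unadjusted p under 0.05, 8 were lower and 0 higher, against 6.06% lower and 4.54% higher over all genes. Of the 27 genes, 11 were at or below the receptor reference, among them Pax7, Zic1, Nkx3-2 and Dlx6, which belong to these 8. Snai2, a repressor that promotes the release of crest cells from epithelium, was bright at 9.26, 9.55 and 9.61 in Delta9 and 10.2, 9.98 and 10.2 in WT. It differed by -0.67 (SE 0.14, adjusted p 0.220). Msx1, a homeobox factor of crest and limb mesenchyme, differed by -0.67 (SE 0.15, adjusted p 0.222), and Sox9, which acts in early crest and in cartilage, by -0.52 (SE 0.16, adjusted p 0.358). Dlx6, a target of Edn1 in the embryonic jaw, was dim and differed by -0.32 (SE 0.11, adjusted p 0.401). On these probe sets every Delta9 array was below every WT array. The Msx1 value belongs to a probe set of the _s_at type, which can match several transcripts: with that type and _x_at left out it was -0.01, and as the mean of its probe sets -0.34. Its adjusted p ran from 0.0681 to 0.983 over the alternatives (limma). Averaging probe sets likewise gave -0.30 for Sox9 and -0.65 for Snai2.

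The remaining lists surround Kit and Mitf. Of 14 Kit signalling genes, 7 were higher and 7 lower, with a median of 0.07 (0.04 without Delta9 replicate 1 or WT replicate 1, and 0.14 without Delta9 replicate 3). The adaptor Grb2 differed by 0.65 (SE 0.15, adjusted p 0.246), the adaptor Sh2b3 by 0.46 (SE 0.17, adjusted p 0.417) and the kinase Fyn by 0.37 (SE 0.16, adjusted p 0.473), each with no overlap between groups. The ubiquitin ligase Cbl differed by 0.37 (SE 0.25, adjusted p 0.643), with overlap. Among 7 relatives and partners of Mitf, Tfec, a close relative best known from macrophages, read 5.02, 4.11 and 4.86 in Delta9 and 3.18, 3.25 and 2.78 in WT. All Delta9 arrays were above WT, by 1.59 on average (SE 0.26, adjusted p 0.115). The WT level lay below the receptor reference, so no fold is given. The macrophage list given above was higher in Delta9 too, and its part in the Tfec values was not tested; without WT replicate 3 the difference of Tfec was 1.45. The E-box factor Usf1 was higher by 0.72 (SE 0.19, adjusted p 0.279), Creb1 by 0.30 (adjusted p 0.594) and the melanocortin receptor Mc1r was dim and differed by -0.29 (adjusted p 0.50). As means of their probe sets Usf1 differed by 0.24, Creb1 by 0.16 and, from the Kit list, Sh2b3 by 0.23. The median of the Mitf list was 0.07, and it was 0.0026 without Delta9 replicate 3 and 0.18 without Delta9 replicate 2.

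**Figure D4:**
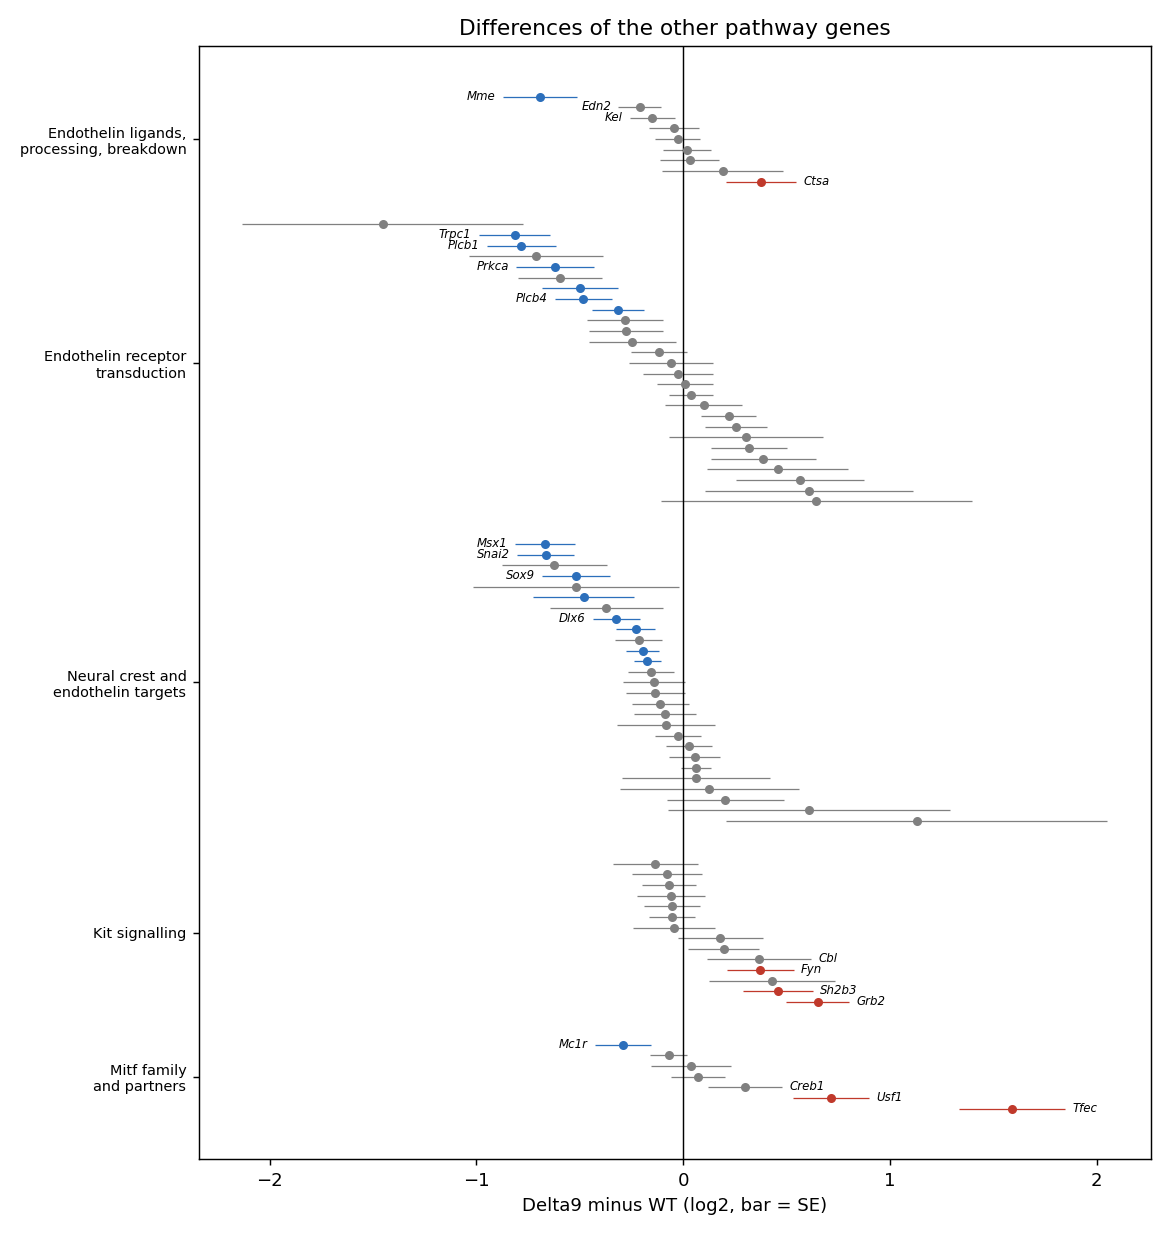
Difference of Delta9 minus WT (log2, horizontal axis) for each of the 84 measured genes of the 5 pathway lists, with bars of 1 SE; red marks genes whose Delta9 arrays all lie above WT, blue those all below, and grey those that overlap. The 4 genes of lowest p in each list are named; 16 genes are blue and 6 are red, and none passed the adjusted threshold.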

How the data were processed

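The table deposited by the authors holds log2 probe set values for 45101 probe sets on 6 arrays; the log2 base was inferred from the values. How they were summarised, background-corrected and normalized is not given in the sources used here, and there are no detection calls. Array medians ran from 3.36 to 3.43. Precision is limited by there being only 3 arrays in each group. Tests did not include the 64 control probe sets. Platform annotation named 34945 probe sets with 1 symbol, 932 with several and 9160 with none; RefSeq (GRCm38.p6) served only to find which genes neighbour Ednrb. Each gene took its probe set of highest mean.

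Delta9 was compared with WT across all genes in limma 3.58.1 (R 4.3.3; lmFit, eBayes with a variance trend), with Benjamini-Hochberg adjustment over 18193 genes and a threshold of 0.05. The procedure was tested on simulated data. No pseudocount or filter was applied.

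The members and lists were chosen with earlier results of these data known. The genes named were the members, the 4 of lowest p in each pathway list and any past the threshold, the 3 brightest of each cell type list, the 5 most like Ednrb, and Lmna; others are said to have been chosen after their values were seen. The pigment enzymes, Cpa3 and the neighbours of Ednrb were likewise added. Relations across arrays used exact permutation tests (scipy 1.17.1). Alternatives covered normalization, dim genes, choice of probe set, variance model, array weights, the replicate number, a split of the arrays by spike-in signal, and leaving out each sample. Figures used matplotlib 3.10.9.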

Additional observations from a re-analysis of the deposited data

How the results depend on the processing

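The Ednrb difference of 2.41, whose sign follows from the choice of the gene, was 1.01 as the mean of its probe sets, 0.48 on 1423594_a_at and 0.15 on 1426314_at, and 1.86 to 2.93 with samples left out. The mean difference of the other 6 members, 0.16, moved by less than the spread between arrays, from 0.08 to 0.24 with samples left out. The 11 genes past the threshold became 139 with array weights, 149 with the spike-in split as a block (Delta9 replicate 3 and WT replicate 1 against the rest), 61 within the other 4 arrays, and 1 to 81 with samples left out. Each of the 6 omissions moved that count by more than 1.5 times: Delta9 replicate 3 left out gave 81, WT replicate 2 left out gave 1, and the others 2 to 5. With the replicate number as a block 0 passed (limma), and 1348 had an unadjusted p under 0.05. This block changed no call among the genes named. Same-numbered arrays deviated with correlations of -0.40, 0.17 and -0.43. Deviations from a mean of 3 arrays constrain one another, so these values cannot decide whether the numbers pair the samples. The highest correlation across the groups was 0.59, between Delta9 replicate 3 and WT replicate 1, the arrays of lowest spike-in signal. Of the 84 pathway genes 2 passed with array weights and 0 under every other alternative. Those under an unadjusted 0.05 numbered 20, and from 11 without WT replicate 3 to 29 with the spike-in split as a block. Over all genes 1928 had an unadjusted p under 0.05, 1399 without WT replicate 3, 3640 with array weights, 3284 with the spike-in split and 2919 within the 4 arrays. With the mean of its probe sets Mc1r differed by 0.039 rather than -0.29, and 11 other named pathway genes shrank by more than 1.5 times. Dim probe sets, among them 9 of the 18 of the members, limit what can be read from Edn3 and Kit.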

Other observations

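Each of the 6 members other than Ednrb was set against the mean level of each of 7 cell type marker lists over the 6 arrays, 42 relations in all. None passed after Benjamini-Hochberg adjustment. With 6 arrays an exact permutation p can be no lower than 0.00139, so no single relation among 42 could have passed on its own. The lack of a pass therefore says little about any of them. Over the 4 arrays of higher spike-in signal only r is given. The lowest p belonged to Mitf and the macrophage list, with Pearson r = 0.86 (exact permutation p = 0.00556, adjusted p = 0.233) and Spearman rho = 0.94 (exact permutation p = 0.0167, adjusted p = 0.350). Without WT replicates 2 and 3, the arrays farthest from the list's median, r was 0.93, and over the 4 arrays of higher spike-in signal 0.97. Ece1 and the pericyte and smooth muscle list gave r = 0.87 (exact permutation p = 0.0139, adjusted p = 0.292) and rho = 0.94 (exact permutation p = 0.0167, adjusted p = 0.350), and r was 0.61 without Delta9 replicate 3 and WT replicate 3 and 0.85 over the 4 arrays. Mitf and the pericyte and smooth muscle list gave r = -0.89 (exact permutation p = 0.025, adjusted p = 0.35) and rho = -0.83 (exact permutation p = 0.0583, adjusted p = 0.594), and r was -0.26 without those arrays and -0.80 over the 4 arrays. Sox10 and the Schwann cell and glia list gave r = 0.80 (exact permutation p = 0.0667, adjusted p = 0.481) and rho = 0.71 (exact permutation p = 0.136, adjusted p = 0.594), and r was 0.37 without Delta9 replicate 2 and WT replicate 1, and 0.88 over the 4 arrays. Leaving out the farthest arrays also narrows a list's range.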
